A study of Homo sapiens with 24 samples.

Results

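Broad H3K27ac domains are stretches of the genome where a single peak of this histone mark ran for 10000 bp or more. They were found by merging the 4 H3K27ac peak lists wherever peaks overlapped by at least 1 bp, and keeping each region that had a peak in all 4 lists and a single peak of 10000 bp or more in at least 1 of them. This gave 735 domains out of 55905 merged regions, or 2.68% of the 27442 regions with a peak in all 4 lists, which are called constant regions here. The domains spanned 11.01 Mb, or 11.5% of all bases in constant regions. The domains were chosen by their H3K27ac peak widths, so widths are given as a description and no test was made on them.

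Every library came from RD cells, an established human line grown from a rhabdomyosarcoma of the fusion-negative kind, a tumour with features of skeletal muscle. Cells labelled TWIST2 KD, in which TWIST2 had been knocked down, were set beside cells labelled control. Each of H3K27ac, MYOD and SMARCA4 was measured by chromatin immunoprecipitation and sequencing in 2 KD and 2 control libraries. A further 2 libraries used an antibody against the Ty1 tag in cells labelled 3xTy1-TWIST2, with no genotype given, and no untagged Ty1 library was used here. SMARCA4 libraries are labelled RD-2 and all others RD-1, and what these names mean is not stated. The labels do not give the means of knockdown, whether cells were cloned or pooled, or whether replicates were separate cultures, so p-values measure only the spread between these libraries.

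H3K27ac is laid down by the acetyltransferases p300 and CBP at active promoters and enhancers. Long stretches of it, often called super-enhancers or stretch enhancers, are known for lying near genes that set a cell's identity, where many transcription factors bind side by side. MYOD is the basic helix-loop-helix factor that drives muscle differentiation by binding E-box sequences. TWIST2 belongs to the same factor family and is known for holding mesenchymal progenitors back from differentiation, and SMARCA4 (BRG1) is the ATPase that moves nucleosomes in the SWI/SNF complexes.

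The lists differed in length in ways that touch the results. H3K27ac lists held 48022 and 46822 peaks in KD and 36679 and 34932 in control libraries, and MYOD lists 52510 and 48003 peaks in KD and 44974 and 43381 in control libraries. SMARCA4 lists held 12518 and 14676 peaks in KD, against 11835 in control replicate 1 and 25013 in control replicate 2. That last list stands apart from the other 3, and SMARCA4 differences between the groups are also given without it where it moves them. The file headers give total tags for SMARCA4 alone, at 36095336 to 46690705 per library, so depth is unknown elsewhere. Positions are in build hg19 (GRCh37).

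Over all domains, typical widths were alike in KD and control cells. The median of the widest peak per domain was 10775 and 10469 bp in the KD libraries and 10876 and 10403 bp in the controls. The means of these medians were 10622 ± 216 bp in KD and 10639.5 ± 334 bp in controls (SD, n = 2 each). Of the 735 domains, 456 and 424 passed 10000 bp in the KD lists and 453 and 411 in the control lists. Covered bases were as close, with 9.43 and 9.31 Mb in KD and 9.43 and 9.20 Mb in control libraries. The median log2 ratio of mean KD to mean control width was -0.0022 over domains and 0.07 over the other constant regions.

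Single domains, in contrast, differed strongly between the groups, in both directions. Both KD widths lay above both control widths in 305 domains (41.5%; 45.2% of all constant regions), and both lay below in 308 domains (41.9%; 29.7% of all constant regions). The widths differed 2-fold or more in 243 domains, of which 108 were wider in KD and 135 wider in control. That was 33.1% of domains, against 24.2% of constant regions of 5000 to under 10000 bp (487 wider in KD, 327 in control) and 12.1% of all other constant regions (2187 wider in KD, 1035 in control). Replicates of a group differed little, with a median absolute log2 ratio of 0.06 between the KD and 0.07 between the control libraries. A KD and a control library differed by 0.60 to 0.67 at the median. A domain enters by being broad in any 1 list, so the rule itself favours regions that differ between lists. The same medians were smaller in the 196 domains of 10000 bp or more in all 4 lists, a choice that favours regions alike in all lists. They were 0.03 between KD libraries, 0.04 between control libraries, and 0.11 to 0.13 across the groups. Of these 196 domains, 7 (3.57%) differed 2-fold or more, 4 wider in KD and 3 in control. That share was below the 12.1% of all other constant regions.

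The lists in which a domain was broad followed the groups. Besides the 196 domains broad in all 4 lists, 153 were broad in both KD lists alone and 132 in both control lists alone. By comparison, 10 domains were broad in just 1 KD and 1 control list. A further 52 and 31 domains passed 10000 bp in KD replicate 1 or 2 alone, 67 and 31 in control replicate 1 or 2 alone, and 63 in 3 of 4 lists.

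The widest domains were named W1 to W8 by their mean width over the 4 libraries, and include domains with near-equal and with unequal groups. W1 lay on chromosome 5 at 97619454 to 97659005, where the widest peak measured 38641 and 37293 bp in the KD libraries and 37376 and 37828 bp in control libraries. W3, on chromosome 8 at 80844047 to 80880620, measured 35996 and 35777 bp in KD, against 36574 and 35776 bp in controls. In both domains a single unbroken peak filled the region in every library, and the groups overlapped. W1 held 2 TWIST2 regions (a peak in both Ty1 libraries), and so did W3.

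W5 and W6 were wider in KD. W5, on chromosome 10 at 11045318 to 11081230, was 1 peak of 35718 and 35888 bp in the KD libraries, against widest peaks of 25926 and 26221 bp in the controls, which each had 2 peaks there. Those control peaks together covered 33515 and 32935 bp. W6, on chromosome 7 at 92367022 to 92401657, had 34636 and 32351 bp in KD, against 24550 and 24517 bp in controls. The groups did not overlap in either domain. W7, on chromosome 6 at 169562193 to 169593153, also separated, with 27867 and 30612 bp in KD, against 26336 and 27407 bp in controls.

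W4 went the other way and held the longest peak of all lists. It lay on chromosome 15 at 33375474 to 33426189. In the KD libraries it was split into 4 and 5 pieces, the widest of 23498 and 18016 bp, and in the controls it was 1 peak of 50446 and 50155 bp. The pieces still covered 44454 and 42593 bp in KD, so most of its bases kept the mark. It held 7 and 4 MYOD peaks in KD and 9 and 6 in control libraries, with 3 TWIST2 regions, and 9 was the highest MYOD count of any domain and library.

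The longest KD peak lay in another domain, on chromosome 2 at 151439879 to 151489857, which was picked out after its values were seen. Its widest peak measured 27467 and 49892 bp in KD, against 11051 and 11434 bp in control libraries, where it was broken into 6 pieces each. The covered length was 49191 and 49892 bp in KD, against 26740 and 26666 bp in controls. It held 8 and 8 MYOD peaks in KD and 6 and 6 in controls, 1 MYOD region found in both KD and neither control library (KD-only) and 2 TWIST2 regions, so MYOD peaks and H3K27ac width were both higher in KD there.

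**Figure D1:**
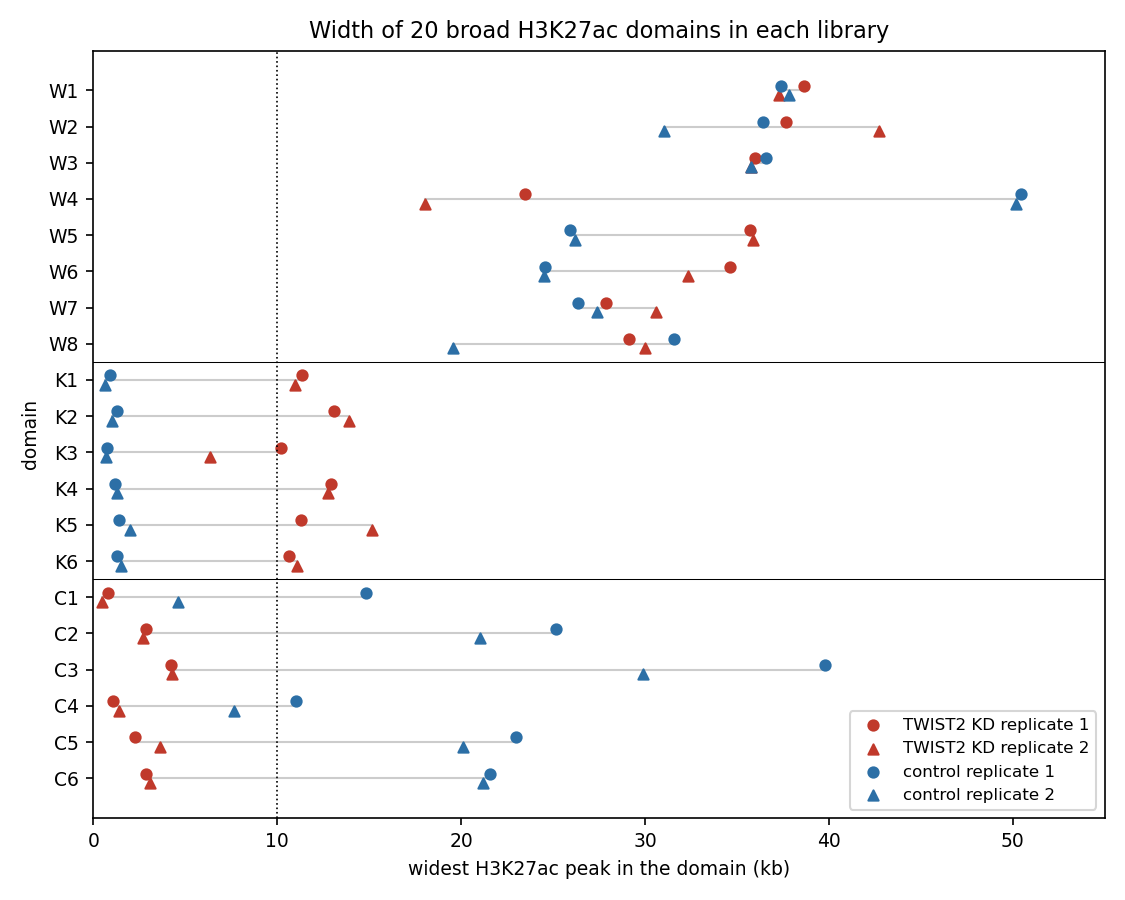
Width in kb (x axis) of the widest H3K27ac peak in 20 domains (y axis): the 8 widest (W1 to W8), the 6 with the highest (K1 to K6) and the 6 with the lowest ratio of KD to control width (C1 to C6). Red points are the 2 KD libraries, blue points the 2 control libraries, triangles are replicate 2, grey lines span the 4 values and the dotted line marks the width threshold. Replicates mostly sit together, while K1 to K6 and C1 to C6 were chosen for groups that stand apart.

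The 6 domains with the largest ratio in favour of KD (K1 to K6) were broad peaks in KD and short peaks in control cells. K1, on chromosome 4 at 113924642 to 113936017, had 11367 and 10980 bp in KD, against 917 and 632 bp in control libraries, a 14.4-fold difference of the means. K2, on chromosome 2 at 40319279 to 40333537, had 13078 and 13903 bp in KD, against 1289 and 1016 bp in controls. K4, on chromosome 5 at 139670602 to 139683530, had 12929 and 12766 bp in KD, against 1165 and 1310 bp in controls. The widths of the control libraries lay far below those of the KD libraries in all 3.

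In K3 and K5 the KD replicates stood further apart from each other than in the other 4. K5, on chromosome 3 at 86996475 to 87011654, had 11317 and 15168 bp in KD, against 1399 and 1979 bp in controls. K6, on chromosome 4 at 177693771 to 177704867, had 10623 and 11097 bp in KD, against 1288 and 1508 bp in controls. K3, on chromosome 11 at 94537782 to 94547980, had 10199 bp in KD replicate 1 but 6341 bp in KD replicate 2, against 728 and 697 bp in controls. All 6 held at least 1 TWIST2 region, with 2 each in K1, K2 and K5.

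MYOD peaks in K1 to K6 were few. K1 had 2 and 2 MYOD peaks in KD and 1 and 1 in control libraries, 1 of them in a KD-only MYOD region. K4 had 1 and 2 in KD and 0 and 1 in controls, and K2 had 1 and 0 in KD and 1 and 0 in controls. K1, K4 and K5 each held 1 KD-only MYOD region, and none of the 6 held a control-only one (found in both control and neither KD library). K6 was the one of the 6 with a SMARCA4 peak, in KD replicate 2.

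The 6 domains with the largest ratio in favour of control (C1 to C6) were short peaks in KD, and 4 of them passed 20000 bp in a control library. C3, on chromosome 6 at 26019571 to 26059363, had 4242 and 4259 bp in KD, against 39793 and 29882 bp in control libraries. In KD it was broken into 6 pieces in each library, which together covered 17953 and 17308 bp, against 39793 and 38503 bp in controls. C2, on chromosome 5 at 158966954 to 158992101, had 2890 and 2718 bp in KD, against 25148 and 21019 bp in controls. C2 was covered over 6620 and 6218 bp in KD, against 25148 and 22042 bp in controls.

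C4, on chromosome 5 at 158882404 to 158893416, had 1064 and 1413 bp in KD, against 11013 and 7675 bp in controls. C5, on chromosome 10 at 54420995 to 54447312, had 2275 and 3647 bp in KD, against 22984 and 20112 bp in controls. C6, on chromosome 13 at 81120589 to 81142323, had 2892 and 3100 bp in KD, against 21572 and 21171 bp in controls. In these 3 domains the replicates were much closer to each other than to the other group. C1, on chromosome 2 at 97860331 to 97875167, had the lowest ratio but rests on unequal controls, with 781 and 501 bp in KD, against 14837 and 4607 bp in controls.

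TWIST2 regions lay in 3 of C1 to C6, while each of the 6 had a MYOD peak in at least 1 KD and 1 control library. C6 held 3 TWIST2 regions, C2 held 2, C5 held 1, and C1, C3 and C4 held none. C2 had MYOD peaks in both groups, with 4 and 2 in KD and 2 and 2 in control libraries. C3 had 5 and 4 MYOD peaks in KD and 7 and 3 in controls. A control-only MYOD region was present in 1 of the 6, C1.

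**Figure D2:**
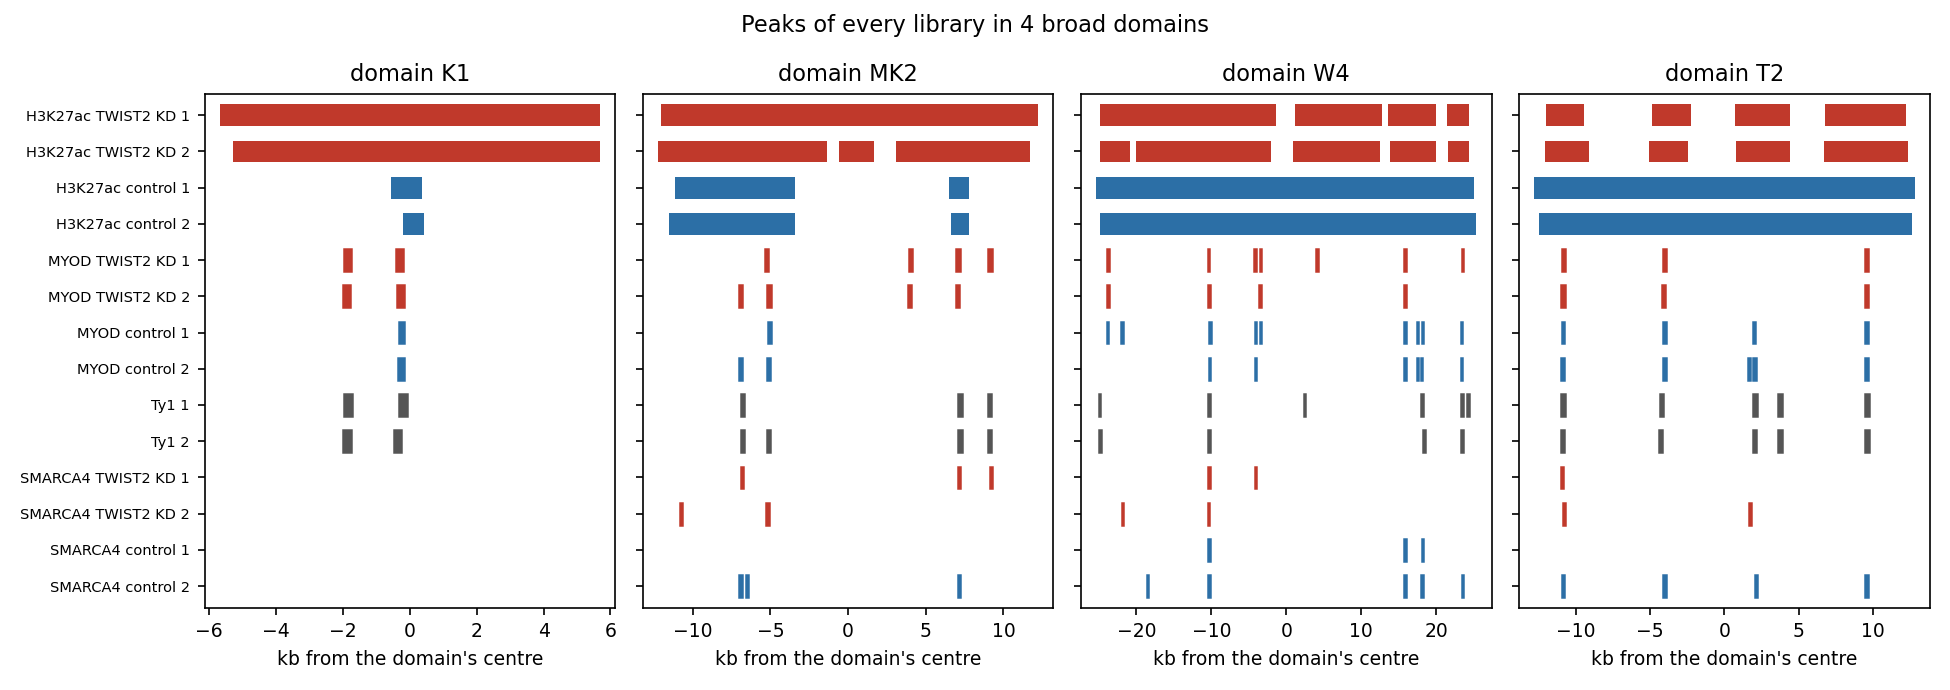
Peaks of every library in domains K1, MK2, W4 and T2, by distance in kb from the domain's centre (x axis), with 1 row per library (y axis) and KD in red, control in blue and Ty1 in grey. In K1 the KD peak runs across the domain and the controls have a single short peak, while W4 and T2 are split into 4 or 5 pieces in KD and unbroken in the controls.

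The balance between the directions shifted with domain width. Both KD widths were above both control widths in 43.3% of the 515 domains whose widest peak measured under 15000 bp, in 37.9% of the 132 of 15000 to under 20000 bp and in 36.4% of the 88 of 20000 bp or more. The reverse held in 39.2%, 45.5% and 52.3% of the same 3 classes. Among the 3358 constant regions of 5000 to under 10000 bp, by contrast, 49.6% were wider in KD and 33.2% wider in control. The median log2 ratio of KD to control width was 0.03, -0.05 and -0.14 in the 3 classes of domains and 0.08 in regions of 5000 to under 10000 bp. The classes were set by the widest peak in any list, so this order is a description of how the regions were chosen as well as of the cells.

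**Figure D3:**
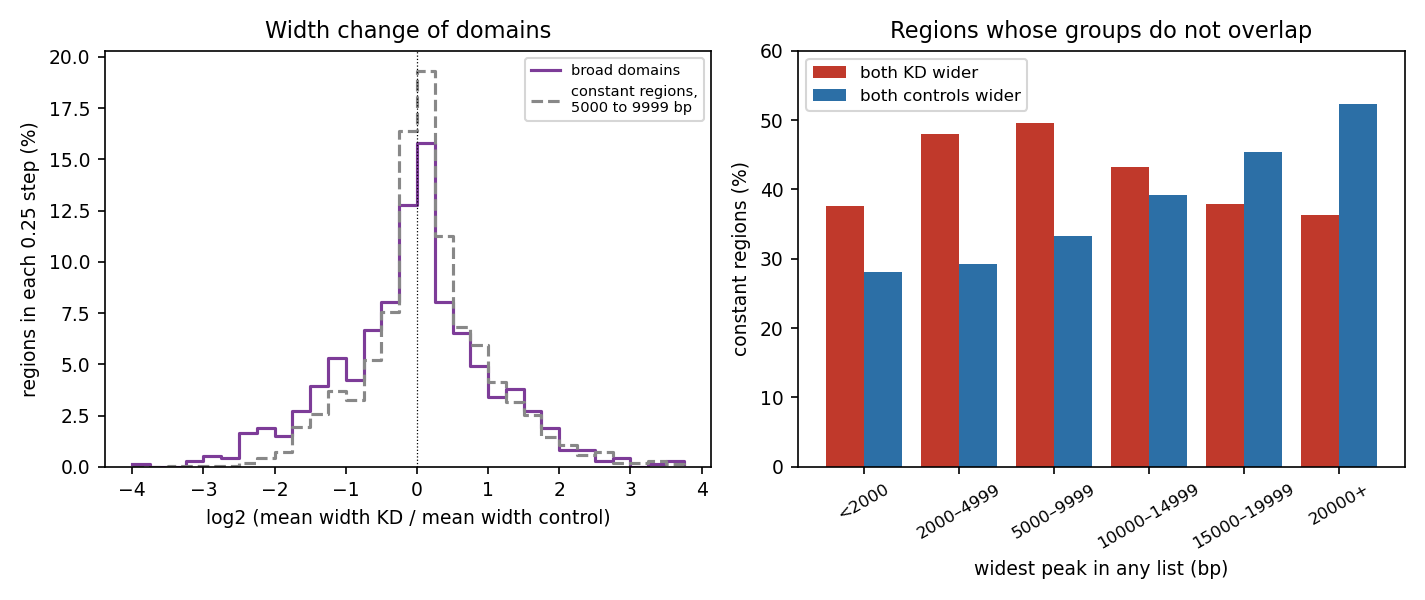
Left, the share of regions (y axis, %) at each log2 ratio of mean KD to mean control width (x axis) for the 735 domains (solid line) and the 3358 constant regions of 5000 to under 10000 bp (dashed line). Right, the share of constant regions (y axis, %) in 6 classes of widest peak (x axis) whose widths were higher in both KD libraries (red) or in both controls (blue); the blue bar is the higher one from 15000 bp upward.

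Domains that were narrower in one group were often split there. Width is that of the widest single peak, so splitting a peak lowers its width by definition. The 305 KD-wider domains had on average 1.12 and 1.18 pieces in the KD libraries and 1.86 and 1.86 in the controls. The 308 control-wider domains had 2.19 and 2.15 pieces in KD and 1.15 and 1.32 in control libraries. Taking all domain bases, 69.0% were marked in all 4 libraries, 9.38% (1032 kb) in both KD and no control library, and 8.82% (971 kb) in both control and no KD library. Of the KD-only bases, 41.0% lay in gaps between control peaks and the rest beyond their ends. Of the control-only bases, 58.7% lay in gaps between KD peaks.

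Almost every domain held at least 1 factor site. A MYOD peak of at least 1 library was present in 704 domains (95.8%), a Ty1 peak in 668 (90.9%) and a SMARCA4 peak in 616 (83.8%), and 5 domains had no peak of the 3 antibodies in any library. Sites found in every library of an antibody were fewer. TWIST2 regions lay in 556 domains (75.6%), MYOD regions shared by all 4 MYOD libraries in 497 (67.6%), and SMARCA4 regions shared by all 4 SMARCA4 libraries in 15 (2.04%). Both a TWIST2 region and a shared MYOD region were present in 410 domains (55.8%), and all 3 kinds in 12. Of constant regions of 5000 to under 10000 bp, 65.0% held a TWIST2 region. Their median length was 6436 bp, against 13000 bp for domains. In single libraries a MYOD peak lay in 77.1% to 83.4% of those regions and in 86.4% to 88.4% of domains. A Ty1 peak lay in 77.2% and 78.3% of those regions and in 83.9% and 86.0% of domains. For SMARCA4 the share of domains was 39.3% and 30.7% in KD, 41.6% in control replicate 1 and 70.6% in control replicate 2. Those regions had 30.9%, 27.5%, 32.1% and 61.3% in the same order, so the 83.8% of domains rests largely on control replicate 2.

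The domains held 909 TWIST2 regions, or 1.87% of the 48591 in the genome. The number per domain ran from 0 in 179 domains, 1 in 288, 2 in 198 and 3 in 57 to 4 or more in 13. Domains with more TWIST2 regions were longer, with medians of 12130, 12656.5, 13803.5, 16339 and 21691 bp in the same order. Of the TWIST2 regions in domains, 39.3% overlapped a shared MYOD region, against 39.1% in the other constant regions. Any MYOD region was overlapped by 69.5% of them, against 80.3% in the other constant regions and 73.1% in those of 5000 to under 10000 bp.

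Of the 13 domains with 4 or more TWIST2 regions, 7 were KD-wider and 5 control-wider. T1 and T2 had 5, the highest number, and T3 and T4 had the highest mean width of those tied at 4. T1, on chromosome 18 at 6727596 to 6755926, held 5, and its width was 28306 and 27458 bp in KD, against 21381 and 25883 bp in control libraries. T2, on chromosome 16 at 27232008 to 27257559, also held 5, but measured 5424 and 5637 bp in KD, against 25552 and 25110 bp in controls. T4, on chromosome 1 at 39623412 to 39664104, held 4 and measured 40519 and 37540 bp in KD, against 15764 and 15017 bp in controls. T3 was also W2, on chromosome 7 at 133233613 to 133278475, with 37663 and 42741 bp in KD, against 36444 and 31055 bp in controls. By widest peak, T2 was much narrower in KD and T4 much wider, while the groups lay closer together in T1 and T3. Covered bases differed less. For T2 they were 14254 and 14891 bp in KD, against 25552 and 25110 bp in controls. For T4 they were 40519 and 39539 bp in KD, against 35420 and 33917 bp in controls.

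MYOD peaks were present in these 4 domains in every library. T2 had 3 and 3 MYOD peaks in KD and 4 and 5 in controls, although its widest H3K27ac peak was 4.58-fold shorter in KD. T4 had 6 and 5 in KD and 4 and 5 in controls. T1 had 3 and 4 in KD and 6 and 6 in controls, so the KD counts lay below the control counts, as in T2. T3 had 3 and 4 in KD and 1 and 3 in controls.

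Over all domains, median width ratios were not ordered by the number of TWIST2 regions. The median log2 ratio of KD to control width was -0.08 in domains with 0 TWIST2 regions, 0.06 with 1, -0.02 with 2, 0.03 with 3 and 0.07 with 4 or more. Of the 179 domains without a TWIST2 region, 35.8% were wider in both KD libraries and 49.7% wider in both controls. Of the 87 domains with a shared MYOD region and no TWIST2 region, 28 were KD-wider and 49 control-wider. Of the 146 with a TWIST2 region and no shared MYOD region, 74 were KD-wider and 49 control-wider. In the largest set, the 410 domains with both, 167 were KD-wider and 170 control-wider. No such split of the other constant regions is given here, so whether it is particular to domains was not tested.

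Per length, broad domains were poorer in factor sites than shorter constant regions. MYOD peaks numbered 11.8 and 10.7 per 100 kb of domain in KD and 12.0 and 11.7 in control libraries, which is 0.379-fold the density in the other constant regions (mean log2 ratio -1.40 ± 0.05, SD, n = 4 libraries; lower in 4 of 4). The exact sign-flip p was 0.125 (two-sided), the smallest that 4 libraries allow. Ty1 peaks numbered 10.3 and 11.002 per 100 kb of domain, 0.430-fold the density in other constant regions (log2 -1.22 ± 0.05, n = 2 libraries, exact p = 0.5, the smallest possible). SMARCA4 peaks numbered 3.26 and 2.52 per 100 kb in KD and 3.28 and 7.40 in control libraries, 0.363-fold (log2 -1.46 ± 0.19, n = 4 libraries, lower in 4 of 4, exact p = 0.125). The density of all 3 antibodies was lower in each longer class of region up to the narrowest class of domains. SMARCA4 peaks also had to exceed their surrounding 10000 bp 4-fold when they were called.

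The difference was smaller against regions closest in width. Relative to constant regions of 5000 to under 10000 bp, the mean density in domains was 0.694-fold for MYOD (exact p = 0.125), 0.699-fold for Ty1 (exact p = 0.5) and 0.618-fold for SMARCA4 (exact p = 0.125), each time lower in every library. Counted per region, the order turned. A domain held 1.77 and 1.60 MYOD peaks in KD and 1.80 and 1.75 in control libraries, against 1.13 and 1.02 in KD and 1.203 and 1.16 in control libraries for regions of 5000 to under 10000 bp. Over all 18 tests across libraries in this family, the lowest p adjusted by Benjamini and Hochberg's method was 0.5.

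**Figure D4:**
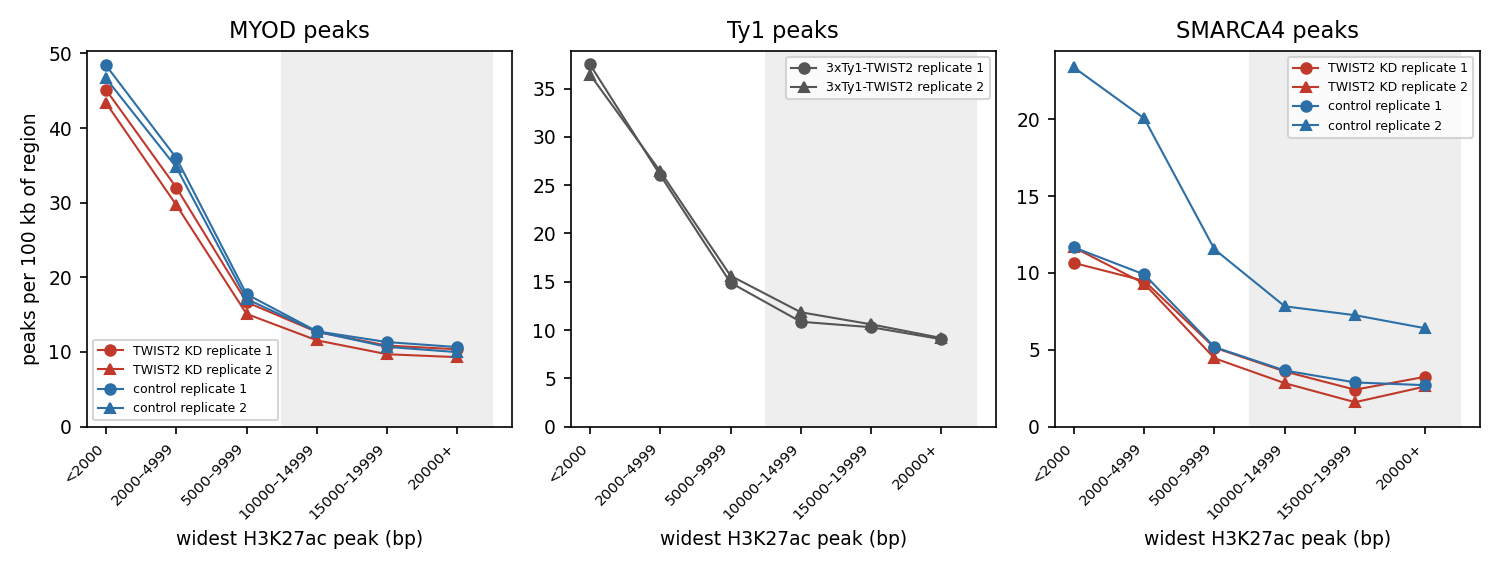
Peaks per 100 kb of constant H3K27ac region (y axis) for MYOD, Ty1 and SMARCA4 in 6 classes of the region's widest H3K27ac peak (x axis); 1 line per library, KD red, control blue, Ty1 grey, and grey shading over the broad domains. Lines fall steeply up to 10000 bp and little beyond, and SMARCA4 control replicate 2 lies above the other 3 libraries throughout.

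MYOD peaks inside the domains numbered 1298 and 1175 in KD and 1321 and 1288 in control libraries. Per 100 kb this was 11.2 ± 0.790 in KD and 11.9 ± 0.212 in the controls (SD, n = 2 each), a difference of -0.62 within the spread of the KD libraries (exact permutation p = 0.667, two-sided). The KD lists are longer, and as a share of each list the domains took 2.47% and 2.45% of MYOD peaks in KD and 2.94% and 2.97% in controls. The groups did not overlap in that share (2.46% ± 0.0171 in KD and 2.95% ± 0.0225 in controls, exact permutation p = 0.333, the smallest that 2 against 2 libraries allow). With every MYOD list cut to the same number of peaks, the difference in share was -0.20 percentage points, against -0.49 with whole lists. In the other constant regions MYOD density was lower in KD as well, at 29.8 and 27.7 per 100 kb, against 32.9 and 31.7 in controls. Lower MYOD values in KD were thus not particular to domains. MYOD counts were higher in both KD libraries in 46 domains (6.26%, against 3.91% of all constant regions). They were lower in both in 71 domains (9.66%, against 7.9% of all constant regions). Constant regions of 5000 to under 10000 bp had shares close to those of domains, with 5.90% higher and 9.23% lower.

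Few of the MYOD sites in domains were specific to a group. The domains held 720 shared MYOD regions (36.5% of their merged MYOD regions), besides 104 KD-only ones (5.27%) and 145 control-only ones (7.34%). The largest class, with 1006 regions (50.9%), was found in some other combination of the libraries, against 60.6% in the other constant regions. Shared regions made up 20.3% of all MYOD regions, 28.5% of those in the other constant regions and 32.8% in constant regions of 5000 to under 10000 bp. Over all MYOD regions the shares were 9.1% KD-only and 5.41% control-only, and in the other constant regions 4.00% and 6.84%. Constant regions of 5000 to under 10000 bp had 5.08% KD-only and 7.26% control-only, close to the shares in domains. Control-only MYOD regions thus outnumbered KD-only ones in the domains, as in the other constant regions and unlike in the genome as a whole.

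At most 2 KD-only MYOD regions fell in a domain, and of the 7 domains with 2, 4 were KD-wider and 3 control-wider. The 4 of the 7 with the highest mean width were named MK1 to MK4. MK1, on chromosome 1 at 94124985 to 94139167, measured 14183 and 13425 bp in KD, against 13144 and 11879 bp in control libraries. MK2, on chromosome 11 at 100742353 to 100766813, measured 24284 and 10860 bp in KD, against 7748 and 8064 bp in controls, with 4 and 4 MYOD peaks in KD and 1 and 2 in controls. MK3, on chromosome 6 at 76187513 to 76207115, measured 19544 and 10866 bp in KD, against 4781 and 4697 bp in controls. In these 3 both KD values lay above both control values. MK4, on chromosome 11 at 20030807 to 20041389, was narrower in KD, with 9255 and 9529 bp in KD, against 10208 and 10583 bp in controls.

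Control-only MYOD regions also numbered at most 2 in a domain, and of the 13 domains with 2, 7 were control-wider, 2 KD-wider and 4 had overlapping groups. W4 and MC2 to MC4 had the highest mean widths of the 13. MC2, on chromosome X at 15181004 to 15206624, measured 4947 and 4507 bp in KD, against 25422 and 23443 bp in control libraries. MC4, on chromosome 17 at 46638912 to 46661101, measured 4104 and 5072 bp in KD, against 22190 and 22065 bp in controls and had 0 and 0 MYOD peaks in KD and 2 and 2 in controls. MC3, on chromosome 8 at 127836134 to 127852472, had overlapping groups, with 15623 and 9442 bp in KD, against 16339 and 12747 bp in controls. Covered bases differed less than widest peaks in MC2 and MC4. In MC2 they were 14308 and 13977 bp in KD, against 25422 and 24358 bp in controls. In MC4 they were 14341 and 15231 bp in KD, against 22190 and 22065 bp in controls.

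MYOD peaks were also counted by the direction of the width change. KD-wider domains held on average 1.69 and 1.58 MYOD peaks in KD and 1.71 and 1.75 in control libraries. Control-wider domains held 1.85 and 1.67 in KD and 1.88 and 1.77 in control libraries. The difference between KD-wider and control-wider domains was -0.129 ± 0.0566 peaks per domain in KD and -0.0952 ± 0.108 in the controls, which differ by less than their spread (SD, n = 2 each, exact permutation p = 1). The KD value less the control value was -0.03, but 0.15 in the first 0.5 of each MYOD list (exact permutation p = 0.333, the smallest possible), so neither a difference nor its absence is shown. The 305 KD-wider domains held 45 MYOD regions of the KD-only kind and 55 of the control-only kind, and the 308 control-wider domains held 44 and 63.

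At the level of bases, MYOD centres were more frequent in KD where H3K27ac was marked in KD alone. In bases of the domains marked in both KD and no control library, MYOD peak centres numbered 28 and 23 in KD and 7 and 4 in control libraries. Per 100 kb this was 2.71 and 2.23 in KD and 0.678 and 0.387 in controls, a ratio of means of 4.64 (2.47 ± 0.342 in KD and 0.533 ± 0.205 in controls, n = 2 each, exact permutation p = 0.333, the smallest possible, adjusted p = 0.5 over 18 tests). With each MYOD list cut to the same number of peaks the difference was 1.79 per 100 kb, against 1.94 with whole lists. In bases marked in both control and no KD library the groups overlapped, with 0.824 and 1.03 per 100 kb in KD and 1.03 and 0.618 in controls (exact permutation p = 1). Bases marked in all 4 libraries held 16.2 and 14.7 centres per 100 kb in KD and 16.8 and 16.5 in controls. Bases marked in KD alone thus held fewer MYOD centres per length than bases marked throughout, in every library.

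Tagged TWIST2 was found at like densities in bases marked in 1 group alone. Ty1 centres numbered 3.39 and 3.39 per 100 kb in bases marked in KD alone, 2.88 and 3.81 in bases marked in controls alone, and 13.6 and 14.4 in bases marked in all 4 libraries. SMARCA4 centres were few there. They numbered 4 and 1 in KD and 0 and 3 in control libraries in bases marked in KD alone (exact permutation p = 0.667), and 1 and 3 in KD and 5 and 5 in controls in bases marked in controls alone (exact permutation p = 0.333).

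**Figure D5:**
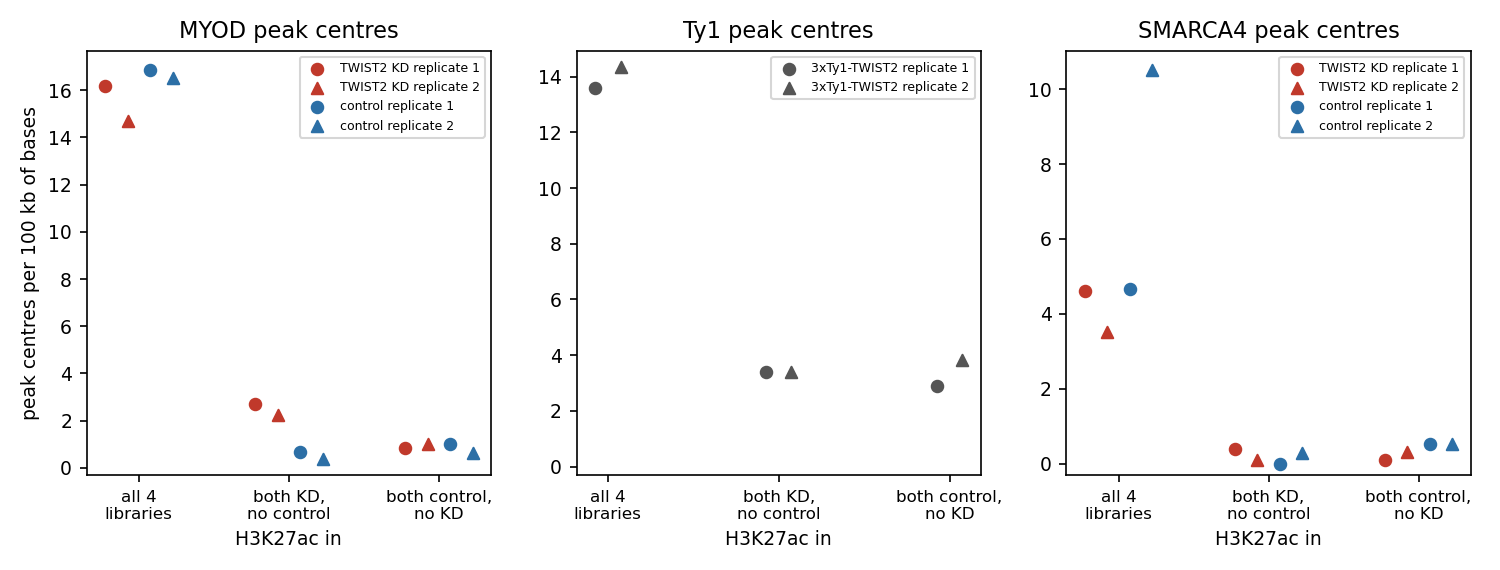
Peak centres per 100 kb of domain bases (y axis) in bases marked by H3K27ac in all 4 libraries, in both KD and no control library, or in both control and no KD library (x axis), for MYOD, Ty1 and SMARCA4; 1 point per library, KD red, control blue, Ty1 grey. MYOD in the second class is higher in both KD libraries than in both controls.

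Inside the domains, TWIST2 and shared MYOD regions were least frequent at the outer ends. Each domain was divided into 10 equal parts, and parts at the same distance from the nearer end were counted together. Shared MYOD regions had 6.39% of their centres in the outermost parts and 27.2% in the second, against 17.4% in the central ones. TWIST2 regions had 12.9%, 25.6% and 15.5% in the same parts. KD-only MYOD regions were the least inward, with 28 of 104 (26.9%) in the outermost parts, whereas control-only MYOD regions had 20 of 145 (13.8%) there. Domain ends are the outer limits of the 4 merged lists, so outermost parts can hold bases marked in only some libraries. Shared MYOD centres numbered 9.31 per 100 kb in bases marked in all 4 libraries, but 0.194 and 0.103 in bases marked in KD or in controls alone. Positions in other constant regions are not given here, so whether the pattern is particular to domains was not tested.

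SMARCA4 in the domains was uneven between libraries. It had 359 and 277 peaks in KD, and 361 and 814 in control replicates 1 and 2. The mean per 100 kb was 2.89 ± 0.527 in KD and 5.34 ± 2.91 in the controls (SD, n = 2 each, exact permutation p = 0.333, the smallest possible), a difference of -2.45 that became -0.39 without control replicate 2. With every SMARCA4 list cut to the same number of peaks the difference was -1.56 (exact permutation p = 0.333). As a share of each list, the domains took 2.87% and 1.89% of SMARCA4 peaks in KD and 3.05% and 3.25% in controls, so the KD values were lower on this scale too (exact permutation p = 0.333). In the other constant regions SMARCA4 density was lower in KD as well, at 8.48 and 8.33 per 100 kb, against 8.88 and 18.2 in controls. Lower SMARCA4 values in KD were thus not particular to domains.

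By domain, SMARCA4 counts were lower in both KD libraries in 108 domains (14.7%; 8.05% of all constant regions) and higher in both in 9 (1.22%; 1.76% of all constant regions). Regions of 5000 to under 10000 bp had 10.4% and 1.64% in the same order. Without control replicate 2, the counts were lower in 128 domains (17.4%; 12.6% of all constant regions) and higher in 51 (6.94%; 4.82% of all constant regions). Of merged SMARCA4 regions in domains, 9 were KD-only (0.716%, against 1.91% of all SMARCA4 regions) and 128 control-only (10.2%, against 6.68% of all SMARCA4 regions). In the other constant regions 1.66% were KD-only and 8.38% control-only. Constant regions of 5000 to under 10000 bp had 1.37% and 9.66%, so the control-only share there was close to that of domains. Most SMARCA4 regions in domains, 1105 (87.9%, against 90.3% of all SMARCA4 regions), were neither specific to a group nor shared by all 4 libraries. The KD-only and control-only regions were called on both control libraries, which differ more than 2-fold in number of peaks. The part of list length in them was not tested.

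Neighbouring domains shared a direction of width change more often than they differed. Of 115 pairs of adjacent domains separated by up to 50000 bp, 30 had both domains KD-wider, 40 had both control-wider and 19 had opposite directions, and in the other 26 at least 1 domain had overlapping groups. Pairs of other constant regions were not counted, so whether this is particular to domains was not tested. Where 4 domains followed each other with such gaps, 8 runs were found. The run on chromosome 6 at 27773692 to 27864920 had 4 control-wider domains, with 24.6 and 24.03 kb covered in KD and 56.2 and 55.3 kb in control libraries. Its first domain had a widest peak of 4068 and 2946 bp in KD, against 21967 and 21799 bp in controls.

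Chromosome 17 held 2 such runs, each of 4 control-wider domains. The run at 46558734 to 46693050, which includes MC4, covered 44.5 and 42.8 kb in KD and 64.9 and 67.3 kb in control libraries. The run at 75381132 to 75477001 covered 28.8 and 27.8 kb in KD and 44.9 and 42.6 kb in controls, with 7 and 6 MYOD peaks in KD and 7 and 5 in controls. The MYOD count there was thus alike in both groups. On chromosome 14, the run at 61565196 to 61699364 had 3 control-wider domains and 9 TWIST2 regions, and covered 51.5 and 53.1 kb in KD and 68.7 and 66.1 kb in controls. Runs wholly of KD-wider domains were not among the 8, and that on chromosome 7 at 81229199 to 81329809 had 2 KD-wider domains and 68.1 and 66.7 kb covered in KD against 64.1 and 60.8 kb in controls.

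Domains were found on all 22 autosomes and chromosome X. Chromosome 1 held the most, 67, followed by chromosome 6 with 65. As a share of constant regions, domains were most frequent on chromosome 18 (4.06%) and least on chromosome 19 (0.935%, 12 domains).

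The members just inside had a widest peak of 10001 bp on chromosome 3 at 111461853 to 111472950, 10015 bp on chromosome 5 and 10023 bp on chromosome 2. The constant regions just outside had 9997 bp on chromosome 7 at 92237885 to 92247881, 9988 bp on chromosome 11 and 9986 bp on chromosome 17. A further 6 regions had a peak of 10000 bp or more but no peak in at least 1 list, and were not members. All 6 were broad in KD and absent from 1 or both control lists, among them chromosome 7 at 81348420 to 81359713 with 11286 and 11274 bp in KD and 884 bp and no peak in controls.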

How the data were processed

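Of 24 samples of RD cells, 14 had a peak list and were used, and 10 input libraries were not used here. The submitters' processing notes name Bowtie2 2.3.4.3, SAMtools 0.1.19, bedtools 2.29.2, HOMER 4.4 and the builds GRCh37 and hg19. The deposited H3K27ac, MYOD and Ty1 lists, 1 per library, give positions only. Per the file headers, SMARCA4 peaks were called with HOMER in factor style against input at a false discovery rate of 0.001, at least 4-fold over input and over the surrounding 10000 bp. For each of these peaks the deposited file gives a score, a normalized tag signal, fold ratios and Poisson p-values, and peaks were ranked by the score where a shorter list was tried. MYOD and Ty1 lists carry no score and were then taken in file order, which does not follow position and is not stated to follow strength.

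Lists were merged at 1 bp overlap with Python 3.11.15, numpy 2.4.6 and pandas 2.3.3, and plotted with matplotlib 3.10.9. Width is the widest peak of a library in a region. A factor peak counted in a region at 1 bp overlap. The library was the unit of all 18 exact permutation tests, adjusted by Benjamini and Hochberg's method. Calculations were tested on simulated data. Domains and tests were chosen with earlier results of these data known. Named domains were the 8 widest, the 6 highest and 6 lowest in ratio of KD to control width among those whose groups do not overlap, 4 each by number of TWIST2, KD-only MYOD and control-only MYOD regions (ties, which were many, by mean width), and 3 on each side of the threshold. The runs, a domain on chromosome 2 and the 6 non-members were chosen after their values were seen. No annotation or sequence of build hg19 was used here, so no genes are named, no sequence is shown and the planned gene lists were not analysed. Alternatives were other merge gaps, thresholds and overlaps, equal or shorter factor lists, 2 chromosomes left out, the replicate number as a block, and each library left out.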

Additional observations from a re-analysis of the deposited data

How the results depend on the processing

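Of 164 recalculated results, 143 kept their direction or stayed close to the value reported. For results with a test this count reflects the sign alone, because no p-value here could reach 0.05. Their size could still move, as given below. The number of domains was 1317 at a threshold of 8000 bp, 439 at 12000 bp and 196 when all 4 lists had to pass, and 671 to 706 when 1 H3K27ac library was left out. KD-wider and control-wider domains numbered 581 and 521 at 8000 bp, 177 and 200 at 12000 bp, and 72 and 73 when all 4 lists had to pass, so which direction led depended on the threshold. Without 1 H3K27ac library they ranged from 281 to 350 and from 274 to 335. The median log2 width ratio was 0.0194 at 8000 bp, -0.0222 at 12000 bp, 0.0139 without chromosomes 8 and 20, and between -0.0269 and 0.0573 without 1 H3K27ac library. The difference in MYOD peaks between KD-wider and control-wider domains changed sign, to 0.0362 at 8000 bp, 0.0690 when all 4 lists had to pass and 0.149 in the first 0.5 of each MYOD list, and ranged from -0.110 to 0.0431 with 1 library left out. The cause of these changes was not tested.

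MYOD density in domains was lower in KD in every alternative run, with differences of -1.18 to -0.06 per 100 kb with 1 library left out, the value nearest 0 without KD replicate 2. With lists cut to equal length the SMARCA4 difference was -1.56, and it ranged from -4.51 without control replicate 1 to -0.39 without control replicate 2. Leaving out that library gave 128 domains with fewer and 51 with more SMARCA4 peaks in both KD libraries, against 108 and 9. The MYOD difference in bases marked only in KD ranged from 1.502 to 2.18 per 100 kb over the 7 alternatives, added after seeing the data, and the lower share of MYOD peaks in domains from -0.92 percentage points in the first 0.5 of each list to -0.20 with lists of equal length. Same-numbered replicates did not deviate together (correlation -0.02 for H3K27ac width and 0.04 for MYOD peaks over 735 domains). With the replicate number as a block the differences stayed at -0.62 for MYOD and -2.45 for SMARCA4 peaks per 100 kb, and the median log2 width ratio was -0.0040. Depth is unknown for all but the SMARCA4 libraries, so differences in list length cannot be told apart from differences in depth.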
